A study of Chlorella variabilis with 6 samples.

Results

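The 100 genes described here were those whose share of the sequenced counts varied least between the LOG OX1 and WT cultures of the green alga Chlorella variabilis, and so are candidates for reference genes. Counts were first divided by the total of their library and expressed as CPM, the count that a gene would have in a library of 1000000. Of the 9625 genes in the table, 3441 reached at least 50 CPM in all 6 libraries. These 3441 well-expressed genes were ranked by the standard deviation (SD) of log2 CPM over the 6 libraries, and the 100 with the smallest SD were taken. The CPM values of these same libraries chose the genes, so their spread and their differences between LOG OX1 and WT are given as a description without a test.

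The libraries came from 3 cultures of LOG OX1 and 3 of WT, all harvested 14 days after inoculation, when 1 h of light remained. LOG OX1 is a line in which a plasmid carrying CvarLOG1 under the 35S promoter was introduced by electroporation and selected with hygromycin, and WT is the wild type strain. Both were grown under alternating light and dark, and LOG OX1 was the single overexpression line sequenced, so an effect of CvarLOG1 and a property of that one line cannot be told apart. The total counts were 10425423, 12444029 and 10180885 in LOG OX1 replicates 1, 2 and 3, against 10743741, 11880864 and 12546100 in WT replicates 1, 2 and 3. CvarLOG1, listed as CHLNCDRAFT_28106, had 38.2, 40.5 and 35.8 CPM in LOG OX1, against 20.29, 20.03 and 23.51 CPM in WT, which puts it below the minimum of 50 CPM (log2 fold change 0.86 by the quasi-likelihood test of edgeR, with a standard error of 0.086 and a Benjamini-Hochberg adjusted p of 1.42e-07).

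A reference gene is a transcript assumed to be level across the samples of an experiment, against which other transcripts are expressed in quantitative PCR. Such genes are usually taken from cell maintenance, for example actin, tubulin, ubiquitin, elongation factors and, in green algae, the ribosome-associated WD-repeat protein RACK1. LONELY GUY (LOG) enzymes release active cytokinins, hormones best known in land plants for control of cell division and of senescence, from their nucleotide precursors. A CPM value is a share of a library and not an amount per cell, so a level CPM does not show a level amount of RNA per cell. It also gives neither the number of cells nor the total RNA per cell. CPM is not corrected for gene length either, so the order of genes by CPM below is an order of reads and not of transcript numbers.

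The 100 stable genes had a median SD of log2 CPM of 0.033 (range 0.017 to 0.041), against a median of 0.18 (range 0.017 to 1.77) over the 3441 well-expressed genes from which they were taken. Their coefficient of variation over the 6 libraries was between 1.14% and 2.87%, and the median was 2.25% against 12.3% over the well-expressed genes. The gap between the highest and the lowest library of a gene was 0.087 on the log2 scale at the median, and never more than 0.126. Over the well-expressed genes the median gap was 0.414. The last 5 genes taken, ranks 96 to 100, were CHLNCDRAFT_59274, CHLNCDRAFT_57280, CHLNCDRAFT_140770, CHLNCDRAFT_141729 and CHLNCDRAFT_57495, with SDs of 0.0407 to 0.0413. The first 5 left out were CHLNCDRAFT_133480, CHLNCDRAFT_139722, CHLNCDRAFT_145153, CHLNCDRAFT_133159 and CHLNCDRAFT_142728, with SDs of 0.0414 to 0.0420. The border was therefore a point in a continuous series of values and not a gap.

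Abundance ranged from 54.9 to 2124 CPM among the stable genes, with a median of 135 CPM against 119 CPM over the well-expressed genes. Stable genes made up 2.19% of the 1327 well-expressed genes with a mean between 50 and 100 CPM (29 genes). They were 3.06% of the 1243 genes between 100 and 200 CPM (38 genes) and 4.17% of the 623 genes between 200 and 500 CPM (26 genes). Above 500 CPM, 7 of 248 genes (2.82%) were among them. Every abundance class was thus represented, from genes just above the minimum to genes at more than 2000 CPM.

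Counting error bears on these values, since a gene read few times varies by chance alone. The SD of log2 CPM expected from Poisson counting was 0.037 at the median of the stable genes and 0.040 at the median of the well-expressed genes. A gene needs about 1220 counts, or 108 CPM in a library of median size, for counting alone to stay at the largest SD taken. The expected counting SD was above that largest SD in 34 of the 100 stable genes, against 46.1% of the well-expressed genes. The observed variance was at or below the counting variance in 62 of the 100 stable genes, against 3.05% of the well-expressed genes. The ratio of observed to counting variance had a median of 0.856 in the stable genes, with a range of 0.125 to 5.62, against 21.8 over the well-expressed genes. For most of the 100 genes the order by SD was therefore an order within the range that counting error spans. These expectations cover counting error only.

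**Figure D1:**
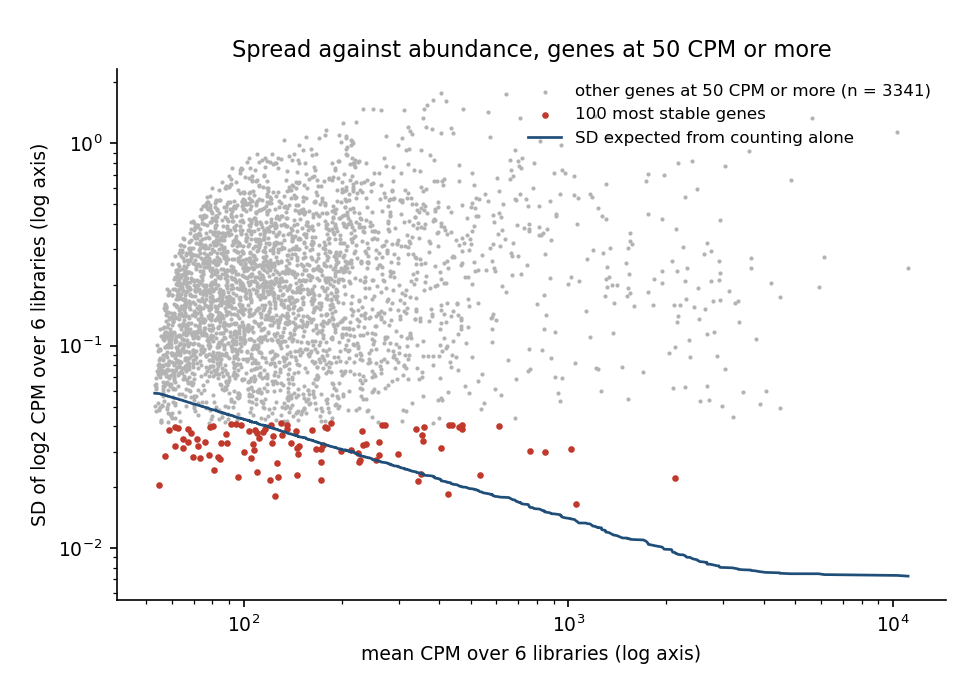
SD of log2 CPM over the 6 libraries (vertical log axis) against mean CPM (horizontal log axis) for the 3441 genes at 50 CPM or more in every library, with the 100 stable genes in red, the others in grey and the SD expected from counting alone as a blue line (a running median over genes). The red points lie at or below 0.041 across the range of 54.9 to 2124 CPM, below the line at its left end and above it at its right end.

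The gene with the smallest SD was CHLNCDRAFT_33230, with 1049.9, 1060.4 and 1038.2 CPM in LOG OX1, against 1062.9, 1064.6 and 1072.1 CPM in WT (SD of log2 CPM 0.017). It was also the second most abundant of the stable genes, and its 3 LOG OX1 libraries all lay below its 3 WT libraries, by a mean of 0.023 on the log2 scale. CHLNCDRAFT_37505 followed with 126.5, 127.3 and 124.6 CPM in LOG OX1, against 123.3, 123.8 and 124.3 CPM in WT, and here the LOG OX1 libraries all lay above the WT libraries. CHLNCDRAFT_51922 had 420.4, 433.6 and 430.1 CPM in LOG OX1, against 430.9, 422.3 and 423.3 CPM in WT. In that gene the 2 groups overlapped, and its mean difference was 0.0085 on the log2 scale. CHLNCDRAFT_138066, at rank 4 and the least abundant of the 100, had 54.5, 54.8 and 55.9 CPM in LOG OX1, against 53.8, 55.7 and 54.8 CPM in WT. Its variance was 0.125 of the variance expected from counting, the lowest ratio among the 3441 well-expressed genes.

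CHLNCDRAFT_35784 had 349.4, 340.5 and 346.6 CPM in LOG OX1, against 336.8, 343.7 and 349.5 CPM in WT. CHLNCDRAFT_58077 had 123.6, 118.2 and 120.6 CPM in LOG OX1, against 120.3, 120.7 and 119.3 CPM in WT. In both genes the groups overlapped. In CHLNCDRAFT_29164 the LOG OX1 libraries had 171.9, 172.0 and 172.4 CPM, against 172.8, 178.8 and 172.7 CPM in WT. The SD within LOG OX1 was 0.0021 in that gene, the smallest of the 100 stable genes, and its WT spread came from replicate 2, which stood above the other two. All 3 of its LOG OX1 libraries lay below the WT libraries, the nearest pair by less than 1 CPM. CHLNCDRAFT_143795, the most abundant of the 100, had 2088.7, 2170.7 and 2136.8 CPM in LOG OX1, against 2092.2, 2145.9 and 2108.8 CPM in WT. At this depth of counting its variance was 5.62 times the counting variance, the highest ratio among the stable genes, although it stood at rank 8. CHLNCDRAFT_35384 had 95.2, 98.1 and 95.9 CPM in LOG OX1, against 96.1, 94.9 and 93.7 CPM in WT. CHLNCDRAFT_139249 had 127.4, 127.7 and 125.6 CPM in LOG OX1, against 127.1, 126.4 and 131.4 CPM in WT. Both closed the 10 lowest SDs with overlapping groups, and in the second the highest library was WT replicate 3.

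The abundant stable genes are those for which an SD near 0.03 is least a matter of counting. CHLNCDRAFT_57522, at rank 38, had 1033.4, 1041.6 and 982.5 CPM in LOG OX1, against 1020.5, 1012.5 and 1001.4 CPM in WT. LOG OX1 replicate 3 was its lowest library, and the groups overlapped. CHLNCDRAFT_137305 had 840.4, 833.2 and 857.6 CPM in LOG OX1, against 863.2, 863.2 and 821.5 CPM in WT. CHLNCDRAFT_49269 had 759.8, 783.7 and 764.7 CPM in LOG OX1, against 745.1, 745.6 and 777.3 CPM in WT. In each of these 2 genes WT replicate 3 stood apart from the other WT libraries, lower in CHLNCDRAFT_137305 and higher in CHLNCDRAFT_49269.

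At the other end of abundance, CHLNCDRAFT_134682 had 56.5, 58.2 and 57.2 CPM in LOG OX1, against 55.7, 58.7 and 57.9 CPM in WT. CHLNCDRAFT_138138 had 60.2, 62.9 and 62.8 CPM in LOG OX1, against 61.0, 61.1 and 59.5 CPM in WT. CHLNCDRAFT_57092 had 62.6, 60.6 and 61.9 CPM in LOG OX1, against 61.2, 58.5 and 63.1 CPM in WT. The groups overlapped in all 3 genes, and their variances were 0.253 to 0.518 of the counting variance, so none varied more than its counts alone would.

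Within each group the stable genes varied by similar amounts. The SD of log2 CPM within LOG OX1 had a median of 0.028 (range 0.0021 to 0.058), and within WT a median of 0.029 (range 0.0059 to 0.059). Over the well-expressed genes these medians were 0.047 within LOG OX1 and 0.051 within WT. The SD within LOG OX1 was the larger of the 2 in 56 stable genes and the SD within WT in 44, where over the well-expressed genes the SD within LOG OX1 was the larger in 47.3% and the SD within WT in 52.7%. The SD within LOG OX1 was largest in CHLNCDRAFT_59189 (61.4, 56.7 and 58.5 CPM in LOG OX1, against 59.8, 58.4 and 58.7 CPM in WT). CHLNCDRAFT_36907 came next, with 120.4, 111.4 and 115.5 CPM in LOG OX1, against 117.0, 114.1 and 117.8 CPM in WT. CHLNCDRAFT_48950 followed, with 347.4, 373.4 and 366.5 CPM in LOG OX1, against 354.7, 351.2 and 353.7 CPM in WT. In each of these 3 genes replicate 1 stood at one end of the LOG OX1 values and replicate 2 at the other. The SD within WT was largest in CHLNCDRAFT_36359, with 464.2, 472.0 and 462.9 CPM in LOG OX1, against 453.2, 479.8 and 490.4 CPM in WT. CHLNCDRAFT_140770 had 91.8, 89.6 and 93.2 CPM in LOG OX1, against 88.7, 89.4 and 95.4 CPM in WT. CHLNCDRAFT_140537 had 96.3, 100.4 and 98.1 CPM in LOG OX1, against 102.0, 95.6 and 95.2 CPM in WT. In these 3 genes WT replicates 1 and 3 lay at opposite ends of the WT values, and the LOG OX1 libraries lay between them.

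The 100 genes together took 2.28%, 2.29% and 2.28% of the counts in LOG OX1 replicates 1, 2 and 3, against 2.27%, 2.28% and 2.27% in WT replicates 1, 2 and 3. The group means were 2.280% ± 0.00748 in LOG OX1 and 2.275% ± 0.00714 in WT (SD, n = 3 each). The geometric mean of the 100 genes was 161.3 ± 0.251 CPM in LOG OX1 and 161.1 ± 0.347 CPM in WT (SD, n = 3 each), which is a consequence of how they were chosen. LOG OX1 replicates 1, 2 and 3 were the highest library of 16, 25 and 12 stable genes and the lowest of 21, 17 and 16. WT replicates 1, 2 and 3 were the highest library of 13, 18 and 16 stable genes and the lowest of 18, 9 and 19. Over the well-expressed genes, LOG OX1 replicates 1, 2 and 3 were the highest library in 16.7%, 13.6% and 13.1% and the lowest in 23.5%, 14.996% and 17.3%. WT replicates 1, 2 and 3 were the highest library there in 22.9%, 18.4% and 15.4% and the lowest in 15.1%, 12.2% and 16.9%. The ranking used these same 6 libraries, so nothing is read from how evenly the extremes of the stable genes fall.

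**Figure D2:**
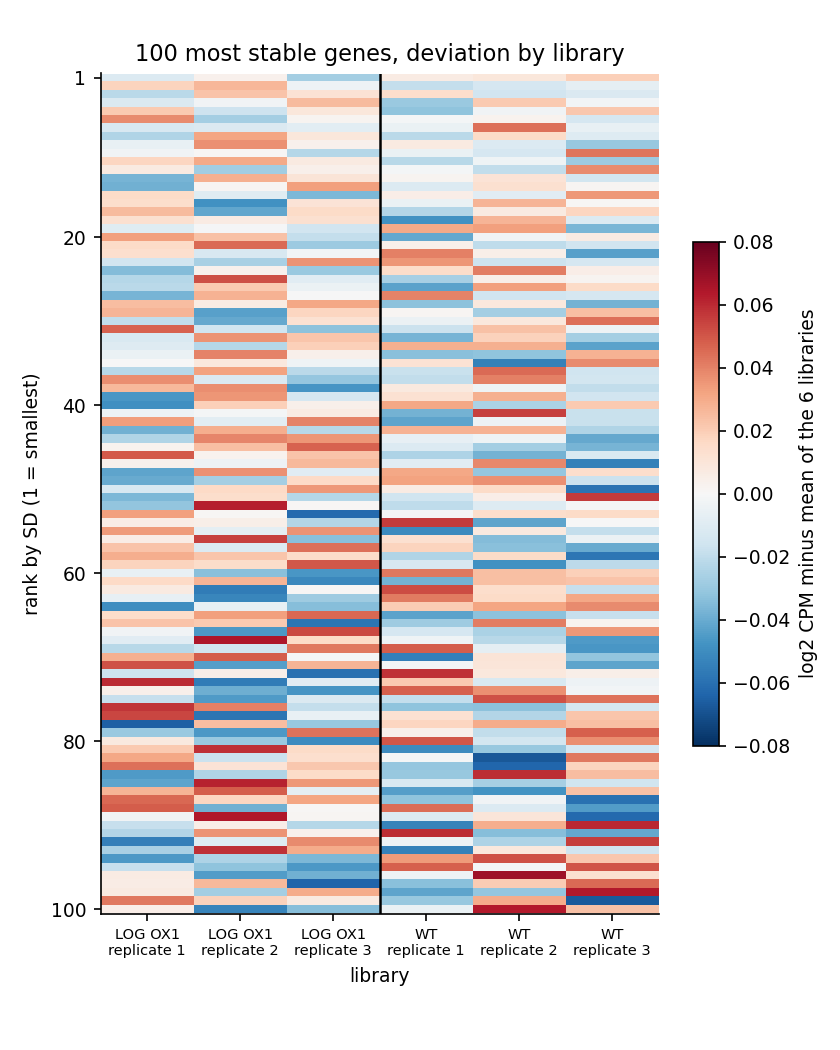
Deviation of log2 CPM from the mean of the 6 libraries (colour, red above and blue below) for the 100 stable genes, ordered from the smallest SD at the top to the largest at the bottom, with the 3 LOG OX1 libraries left of the line and the 3 WT libraries right of it. The colours deepen down the ranking, up to the largest SD of 0.041, and red and blue occur in all 6 columns, where between 12 and 25 genes had their highest value in any one library.

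Between LOG OX1 and WT, the difference in mean log2 CPM of the stable genes lay between -0.071 and 0.063, or between -4.80% and 4.46% of the WT value. The median was 0.00068, against -0.063 over the well-expressed genes, whose range was -3.23 to 2.69. The mean was higher in LOG OX1 in 51 stable genes and lower in 49, and it was higher in 43.7% of the well-expressed genes. A difference of less than 2.5% either way was found in 66 stable genes, against 246 of the 3441 well-expressed genes (7.15%). In 36 stable genes the difference between the groups was larger than the SD within either group, against 86.4% of the well-expressed genes. The LOG OX1 and WT values did not overlap in 17 stable genes, 8 of them higher and 9 lower in LOG OX1, where 74.0% of the 9101 genes tested did not overlap.

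**Figure D3:**
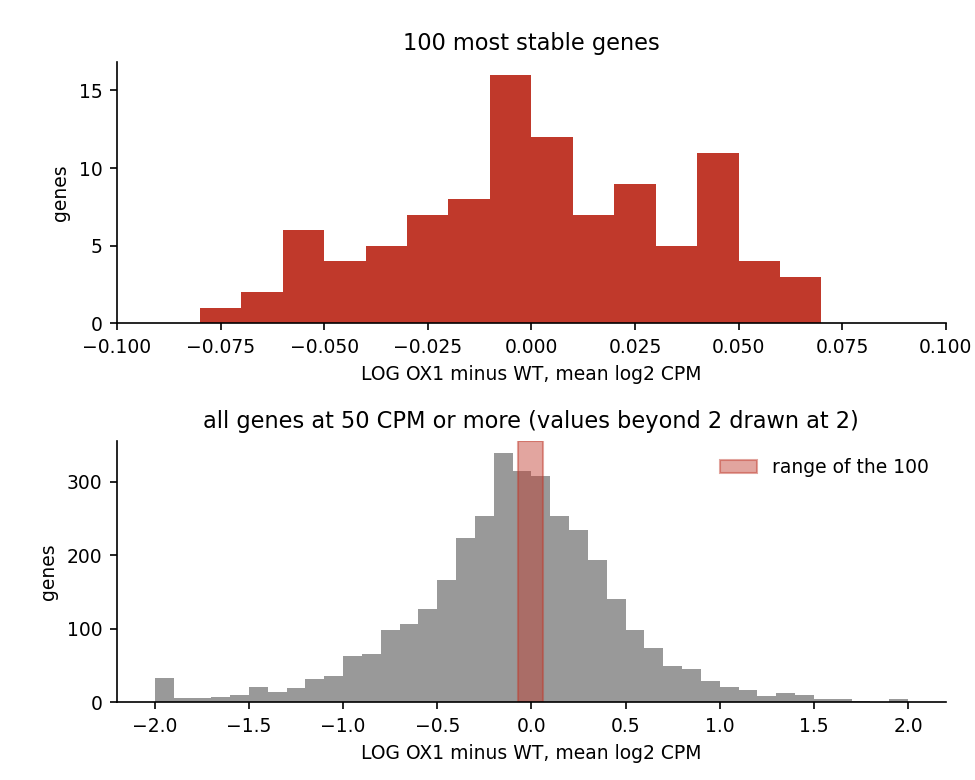
Number of genes by LOG OX1 minus WT difference in mean log2 CPM, for the 100 stable genes (upper panel) and for the 3441 genes at 50 CPM or more (lower panel, with values beyond 2 drawn at 2 and the range of the stable genes shaded). The stable genes fill -0.071 to 0.063, and the well-expressed genes spread from -3.23 to 2.69.

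The largest positive difference among the stable genes was that of CHLNCDRAFT_59812, with 632.5, 620.1 and 626.2 CPM in LOG OX1, against 599.2, 611.6 and 587.9 CPM in WT. CHLNCDRAFT_56191 had 182.4, 187.2 and 181.7 CPM in LOG OX1, against 173.7, 176.1 and 178.1 CPM in WT. CHLNCDRAFT_143718 had 88.7, 89.8 and 90.7 CPM in LOG OX1, against 85.3, 85.9 and 86.7 CPM in WT. All 3 LOG OX1 libraries exceeded all 3 WT libraries in these genes, by 0.062 to 0.063 on the log2 scale. The largest negative difference was that of CHLNCDRAFT_30487, with 258.0, 261.9 and 259.9 CPM in LOG OX1, against 272.8, 276.0 and 270.4 CPM in WT. CHLNCDRAFT_58381 had 432.4, 428.3 and 424.3 CPM in LOG OX1, against 452.7, 437.4 and 453.4 CPM in WT. CHLNCDRAFT_54553 had 342.8, 353.3 and 346.5 CPM in LOG OX1, against 359.9, 362.8 and 364.3 CPM in WT. All 3 LOG OX1 libraries lay below all 3 WT libraries in these genes, with differences of -0.060 to -0.071 on the log2 scale. These 6 genes had small SDs within each group, so the offset between the groups made up most of their spread.

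Across all genes, edgeR's quasi-likelihood test called 2602 of 9101 genes (28.6%), and 809 of the 3441 well-expressed genes. A called gene had an adjusted p no higher than 0.05 and differed by 1.5-fold or more. The test called 0 of the 100 stable genes, where the ranking by small SD leaves no room for such a fold change. Without the fold threshold edgeR called 71.8% of the genes tested, 79.2% of the well-expressed genes and 0 stable genes, of which 1 had an unadjusted p under 0.05. That gene was CHLNCDRAFT_59812 (edgeR log2 fold change 0.085, standard error 0.037, adjusted p = 0.0507). DESeq2 gave it an adjusted p of 0.0395, the single stable gene that DESeq2 called without the fold threshold, and over all alternatives its adjusted p lay between 0.00016 and 0.13. The ranking used the same contrast, so nothing is read from these counts of stable genes.

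The number of stable genes that stood higher in LOG OX1 depended on the scaling. With library totals 51 of the 100 genes were higher in LOG OX1. The TMM factors of edgeR gave 80, its median-ratio factors (RLE) 80, and its upper-quartile factors all 100. The median difference of the stable genes was 0.00068 with library totals, 0.023 with TMM, 0.023 with RLE and 0.13 with upper-quartile factors. The well-expressed genes shifted along with them, with medians of -0.063, -0.041, -0.041 and 0.070 under the same 4 scalings. Over all genes tested, upper-quartile factors moved the median log2 fold change to 0.11, against 0.0010 with TMM. With upper-quartile factors edgeR called 87 of the stable genes at an adjusted p of at most 0.05 without the fold threshold. The share of all genes called in that way was not taken, so nothing is read from this count. With the fold threshold it called 0 stable genes, against 2741 of the 9101 genes tested. The stability of these genes is therefore stability relative to library totals, and close to that relative to TMM or RLE factors.

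Membership was recomputed in the same way. When all genes were scaled and ranked anew, 77 of the 100 stable genes remained among the 100 lowest SDs with TMM and 75 with RLE, but 1 with upper-quartile factors. That gene was CHLNCDRAFT_30487, the gene with the largest negative difference above. Ranking on 5 libraries kept between 68 and 82 of the 100 genes, the fewest without LOG OX1 replicate 1 or WT replicate 1 and the most without LOG OX1 replicate 2. In all, 47 genes were kept under TMM, under RLE and with each of the 6 libraries left out, and the first 41 ranks were all among them. The 10 genes with the smallest SD described above were thus kept in each of these rankings. Leaving out 1 of 6 values can raise an SD only slightly. The SD at rank 41 was 0.031, and the largest SD taken with a library left out was 0.036 to 0.040. The first ranks were therefore bound to stay when a library was left out, and nothing is read from their being kept there.

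Ranks obtained without a library gave values that the choice had not used. In the library left out, the 100 genes ranked on the other 5 deviated from their mean by a median of 0.046, 0.044 and 0.041 on the log2 scale for LOG OX1 replicates 1, 2 and 3, and of 0.050, 0.040 and 0.050 for WT replicates 1, 2 and 3. Over all genes at 50 CPM or more in the other 5 libraries, the median deviation was 0.197, 0.184 and 0.187 for LOG OX1 replicates 1, 2 and 3, and 0.198, 0.192 and 0.182 for WT replicates 1, 2 and 3. Counting alone would give the chosen genes a median of 0.026 to 0.030. The median deviations of 0.040 to 0.050 were above counting error and below the 0.182 to 0.198 of the well-expressed genes. The 5 libraries included others of the same group as the sixth, so the choice had already favoured genes with a small LOG OX1 minus WT difference. The deviation of the well-expressed genes contains that difference, so the gap between these values does not measure stability in new libraries. The largest single deviation among them was 0.153 to 0.302, depending on the library left out.

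Ranking on 1 group alone gave largely other genes. The 100 genes of each such list had SDs of at most 0.0091 in the group used. Their median counting SD in the group not used was 0.039 for the WT ranking and 0.034 for the LOG OX1 ranking. These lists were thus ordered within counting error, and their small overlaps do not show that stability within 1 group differs from stability over both. The 100 genes with the smallest SD in LOG OX1 alone included 6 of the 100 stable genes, and those with the smallest SD in WT alone included 7. Only 3 genes were in both of these single-group lists. In the WT libraries, which the LOG OX1 ranking had not used, its 100 genes had a median SD of 0.040, against 0.053 over the genes at 50 CPM or more in LOG OX1. In the LOG OX1 libraries, the 100 genes ranked on WT had a median SD of 0.047, against 0.050 over the genes at 50 CPM or more in WT. Their differences between LOG OX1 and WT were of the size seen in other genes. The median absolute difference was 0.281 for the genes ranked on LOG OX1 (0.330 over the genes at 50 CPM or more in LOG OX1) and 0.367 for the genes ranked on WT (0.341 over the genes at 50 CPM or more in WT). Among the genes ranked on WT alone the difference ran from -1.51 to 1.35, and 28 of the 100 were called against 28.2% of the genes at 50 CPM or more in WT. Among those ranked on LOG OX1 alone, 24 were called against 26.4% of the genes at 50 CPM or more in LOG OX1.

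**Figure D4:**
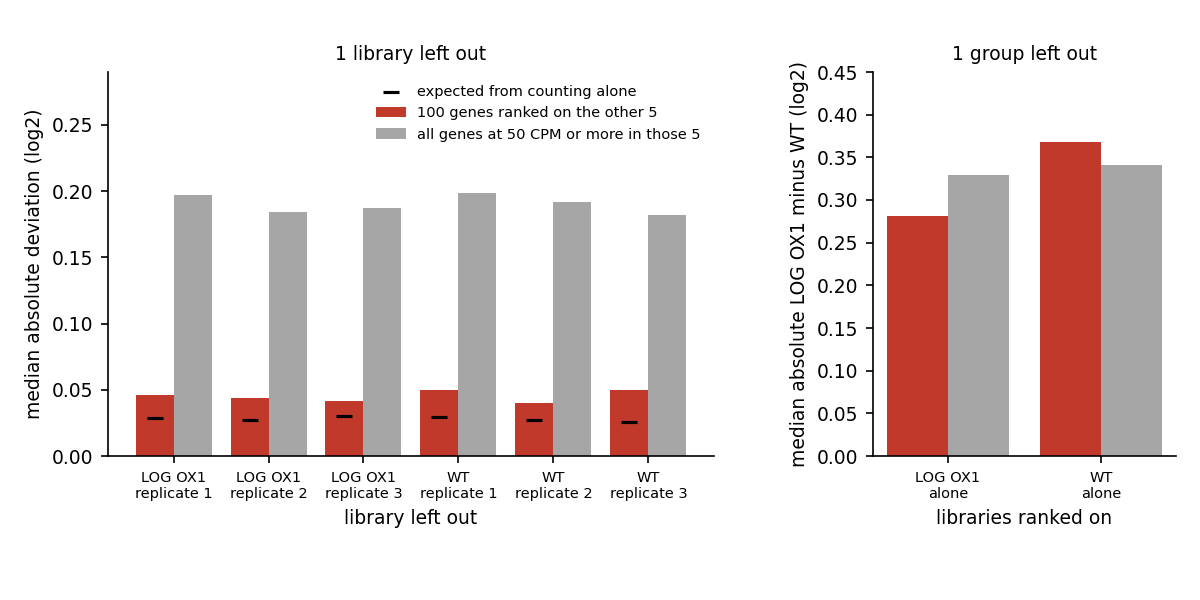
Left, median absolute deviation (log2) of the library left out for the 100 genes ranked on the other 5 libraries (red) and for all genes at 50 CPM or more in those 5 (grey), with the value expected from counting as a black mark. Right, median absolute LOG OX1 minus WT difference (log2) for genes ranked on 1 group alone, where red stands at 0.281 beside grey at 0.330 for LOG OX1 alone and at 0.367 beside 0.341 for WT alone, while on the left red stays at or below 0.050 and grey is at or above 0.182.

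Of the 34 genes that carry a symbol in the reference annotation, 23 were well expressed and 2 were among the stable genes, MCS and PDC1. The other 98 stable genes carry a locus tag only and are given no function here. MCS, at rank 75, stands for an enzyme of the plastid methylerythritol phosphate pathway, which makes the isoprenoid precursors of carotenoids and of the chlorophyll side chain. It had 66.6, 65.3 and 66.9 CPM in LOG OX1, against 66.6, 69.9 and 69.5 CPM in WT, so WT replicate 1 overlapped with LOG OX1. Its difference was -0.051 with library totals and changed sign with upper-quartile factors, to 0.083. Of the other pathway enzymes with a symbol, DXS, which catalyses the entry step, had 771.7, 800.3 and 780.2 CPM in LOG OX1, against 437.8, 456.0 and 466.2 CPM in WT. DXS was called higher by edgeR (log2 fold change 0.81, standard error 0.040, adjusted p = 1.74e-11). DXR, the following enzyme, had a log2 fold change of -0.22 and an adjusted p of 0.00073 in the same edgeR test, below the fold threshold. CMS had a log2 fold change of 0.32 and an adjusted p of 0.0025 in that test, likewise below the fold threshold. CMK, HDS and IDS had log2 fold changes of 0.19, -0.063 and 0.091 and adjusted p of 0.057, 0.17 and 0.052 (edgeR), and the sign of HDS changes with upper-quartile factors. These pathway genes were taken up after values were seen, and no count over them is read as a result.

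PDC1, at rank 76, is the symbol of a pyruvate decarboxylase, an enzyme of alcoholic fermentation. It had 490.3, 484.6 and 465.1 CPM in LOG OX1, against 460.9, 460.7 and 467.0 CPM in WT, and its groups overlapped through LOG OX1 replicate 3 and WT replicate 3. The edgeR test gave it a fold change of 0.075 on the log2 scale, with a standard error of 0.039 and an adjusted p of 0.094. Other genes of anaerobic metabolism with a symbol were taken up after values were seen, and those listed here went in both directions. PDC2, the second gene of the same enzyme, had 20.9, 20.7 and 25.8 CPM in LOG OX1, against 43.9, 42.0 and 42.9 CPM in WT, and fell by 0.92 on the log2 scale (edgeR, adjusted p = 6.16e-08). ADHE1 and ADHE2, aldehyde-alcohol dehydrogenases that form ethanol, fell by 0.80 and 0.93 (edgeR, adjusted p = 2.35e-10 and 1.22e-09). PFL1, a pyruvate formate lyase, had a log2 fold change of -0.39 and an adjusted p of 7.88e-07 in the edgeR test, below the fold threshold. LDH1, a lactate dehydrogenase, had 175.1, 170.1 and 184.7 CPM in LOG OX1, against 167.8, 173.6 and 173.5 CPM in WT, and stood at rank 156, not far outside the stable genes. Among the hydrogenase genes, HYDEF and HYDG, which encode maturation factors, had log2 fold changes of 0.47 and 0.18 (edgeR, adjusted p = 8.77e-08 and 0.0028), and HYD1, a hydrogenase, had one of -0.34 (edgeR, adjusted p = 9.58e-06), all below the fold threshold. HYD2 and the acetate kinase gene ACK1 had too few counts to be tested. No count over these genes is read as a result, since 28.6% of all genes tested were called.

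Genes customarily used as references were looked for by symbol in the reference annotation and by product name in the study's list of changed genes. Neither source could show a customary reference gene among the 98 stable genes with a locus tag only. RACK1 had 2125.0, 2153.9 and 2143.1 CPM in LOG OX1, against 2025.9, 1847.3 and 1925.5 CPM in WT. Its LOG OX1 libraries all lay above its WT libraries, it stood at rank 773 of 3441 with an SD of 0.092, and its mean was 10.8% higher in LOG OX1. Its log2 fold change in the edgeR test was 0.17 (standard error 0.037) with an adjusted p of 0.00057, below the fold threshold, and the difference was positive under all 4 scalings. CHLNCDRAFT_143795, which the ranking chose for its small spread, had a similar number of reads. With library totals its difference was 0.011 and that of RACK1 0.148. The choice of CHLNCDRAFT_143795 fixed its small difference, so nothing is read from this pair. A further 11 genes matched the product names searched for, ribosomal proteins included, in the study's list of changed genes. That list was chosen on these samples for change, so that their positions are no independent evidence. No actin, tubulin, ubiquitin or elongation factor was among them. The 8 of the 11 that were well expressed, ribosomal proteins, most of them of the chloroplast, and a peptidyl-prolyl isomerase, stood at ranks 3034 to 3276, with means higher in LOG OX1 by 0.857 to 1.196 on the log2 scale. The rest were a glyceraldehyde-3-phosphate dehydrogenase, another peptidyl-prolyl isomerase and a histone H3 fragment. Their differences were 3.03, 1.40 and -3.67 on the log2 scale, the last at 0.25 CPM in LOG OX1 against 2.86 CPM in WT. The study normalised its quantitative PCR to 18S ribosomal RNA, which was not analysed here.

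The stable genes were spread over the whole table, whose rows follow the order of genes in the reference annotation. The first stood in row 128 and the last in row 9314. Successive stable genes were a median of 69 rows apart, with gaps of 1 to 379 rows. In 10 successive stretches of 962 or 963 rows, between 6 and 15 stable genes were found, which is 1.95% to 4.26% of the well-expressed genes of a stretch. The fewest lay in the eighth stretch, 6 of 308 well-expressed genes, and the largest share in the last, 10 of 235. The row numbers do not show where one scaffold ends and the next begins, and no coordinates are given because the sources name no release of the genome.

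**Figure D5:**
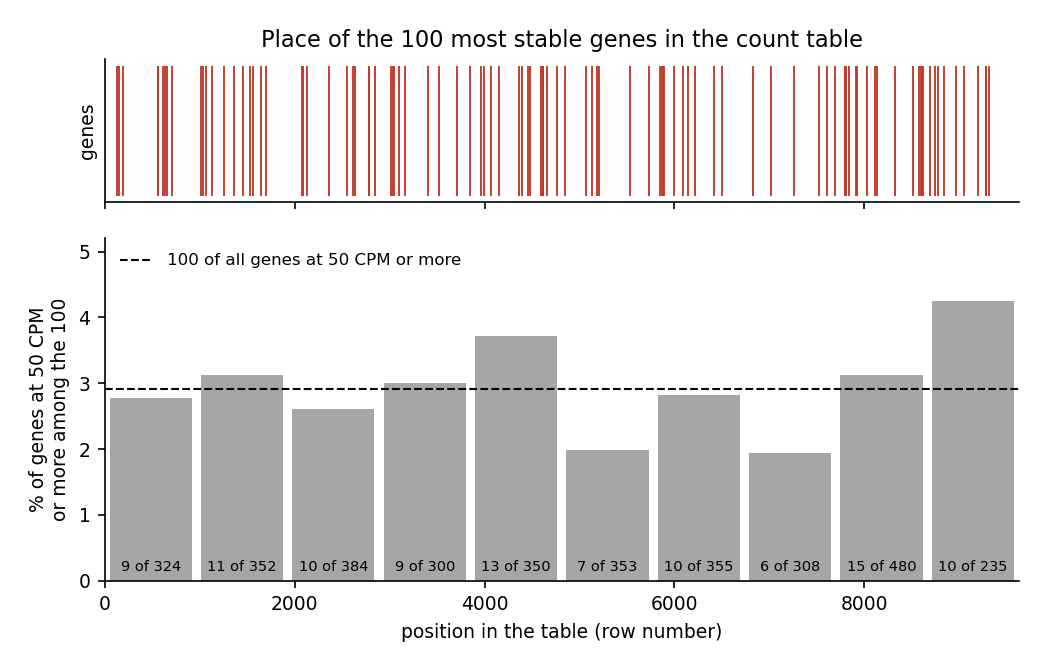
Upper panel, the row of each of the 100 stable genes in the count table (red lines). Lower panel, stable genes as a percentage of the well-expressed genes in each of 10 stretches of the table, with the numbers in the bars and the overall share as a dashed line, which runs between the lowest bar at 1.95% and the highest at 4.26%.

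A single pair of stable genes stood in neighbouring rows, CHLNCDRAFT_30487 at rank 94 and CHLNCDRAFT_34803 at rank 68. CHLNCDRAFT_34803 had 113.5, 119.4 and 115.4 CPM in LOG OX1, against 113.9, 112.5 and 110.6 CPM in WT. Its difference was 0.047 and that of its neighbour -0.071 on the log2 scale, so the pair differed in direction with library totals. Closest after them, with a single gene between, were CHLNCDRAFT_56611 (89.0, 89.0 and 87.2 CPM in LOG OX1, against 92.1, 86.1 and 88.6 CPM in WT) and CHLNCDRAFT_29381 (145.6, 145.9 and 146.6 CPM in LOG OX1, against 142.2, 151.7 and 144.2 CPM in WT). In both of these the WT values spread to either side of the LOG OX1 values. CHLNCDRAFT_142486 and CHLNCDRAFT_142490, with 2 genes between them, stood near the end of the table at ranks 88 and 31.

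Called genes stood beside 33 of the stable genes, a count that was not taken over all genes and from which nothing is read. Of the 197 genes in the rows directly before or after a stable gene that are not themselves stable genes, 80 were well expressed (40.6%, against 35.8% of all genes), and these had a median SD of 0.153. The median SD was 0.186 over well-expressed genes that were neither stable nor next to a stable gene. Of the 184 neighbours tested, 36 (19.6%) were called by edgeR at the fold threshold, against 28.6% of all genes tested. The difference between neighbours and other genes was not tested.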

How the data were processed

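RNA was sequenced from 3 LOG OX1 and 3 WT cultures, grouped by their labels. The authors trimmed reads with Trim Galore, mapped them on the NC64A genome by HISAT2 and used HTSeq to obtain the raw counts per gene that they deposited. Tool versions, annotation release and strand setting of the counting are not given in the sources used here, so overlapping genes and near-identical copies are uncertain. All 9625 identifiers matched the RefSeq annotation of Chlorella variabilis v1.0, used for symbols and row order.

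The genes, the lists and the tests were chosen with earlier results of these data known. Named genes were the 10 with the smallest SD, the 5 most and 5 least abundant, the 3 extremes of each within-group SD and of the difference in each direction, the ranks on both sides of the border, neighbouring pairs, genes with a named product, and customary reference genes. The other pathway genes with a symbol, and the pairs with 1 or 2 genes between them, were added after values were seen.

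Counting variance was taken as the Poisson variance of log2 counts. The test of LOG OX1 against WT was made in R 4.3.3 by edgeR 4.0.16 (limma 3.58.1, TMM, filterByExpr with a minimum count of 10, quasi-likelihood F test, Benjamini-Hochberg adjustment over 9101 genes), checked on simulated data. Alternatives were DESeq2 1.42.0, other scalings, filters, fold thresholds and measures of spread, a replicate block and each library left out. Rankings used Python 3.11.15. Replicates were stated to be biological. The columns of the study's own comparisons in its supplementary tables were not used.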

Additional observations from a re-analysis of the deposited data

How the results depend on the processing

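Of the 100 genes, 1 remained with upper-quartile factors, 40 when ranked by geNorm M (the mean SD of log2 ratios to all other well-expressed genes), 59 by variance minus counting variance, 8 by the pooled SD within groups, 6 when ranked on LOG OX1 alone and 7 on WT alone. Between 68 and 82 remained with 1 library left out, 83 with a minimum of 20 CPM, 70 with 100 CPM, 85 by range and all 100 by coefficient of variation. For the same 100 genes under upper-quartile factors, the median SD was 0.080, the largest 0.110, and the LOG OX1 minus WT difference had a median of 0.13 and a range of 0.062 to 0.196. The cause of these shifts was not tested.

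The number of genes called over the whole table was 6536 with no fold threshold and 1193 with a fold change of 2 or more, between 2615 and 2666 with 1 library left out, and between 2475 and 2741 under the other alternatives. None of the 100 genes was called at the fold threshold under any of these. Without that threshold, 1 was called with at least 10 counts in every library, 1 by DESeq2, 1 without WT replicate 3 and 87 with upper-quartile factors. The share of all genes called without the threshold was not taken under these alternatives, so nothing is read from these counts. With the replicate number as a replicate block, 2603 genes were called. Same-numbered libraries did not deviate together (r = 0.047, 0.064 and -0.22 across genes, which are not independent replicates), so the numbers were not treated as pairs.

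A gene of 50 CPM has a counting SD above the largest SD taken, so below about 108 CPM counting error alone can keep a gene out of the 100 or order it within them.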
